A study of Mus musculus with 8 samples.

Results

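Among 9817 protein-coding genes with a mean of 5 CPM (reads of a gene per 1000000 counted reads of its sample) or more, 17 genes were lower in both IκBα KO samples than in every WT and HET sample. They were chosen by these very values: the higher KO level had to be at most the lowest WT or HET level divided by 1.1. The share that met the rule was 0.173% of the eligible genes, and the count table held 55487 genes in all. One more gene, the Y-linked Eif2s3y, was at 0 reads in both KO samples and also in the 3 female WT and HET samples, so it tied with the references and was not counted. The reverse pattern, both KO samples above all others by the same margin, was met by 89 genes. Since the KO samples chose the members, their KO levels are given as a description, with no test.

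The LT-HSCs, the long-term repopulating fraction of hematopoietic stem cells, were sorted from E14.5 fetal liver as LSK CD48- CD150+ cells, 500 per sample. There were 3 IκBα WT samples (WT1 to WT3), 3 HET samples (HET1 to HET3) with 1 targeted copy, and 2 KO samples (KO1 and KO2) with none intact, all untreated, from the constitutive Nfkbia tm1Bal knockout line, in which the targeted alleles are present in every cell of the embryo and not just in the stem cells. According to the methods, 1 further KO sample was discarded for its sequencing quality. WT1, WT2 and HET1 were male and carry a total RNA label. Both KO samples, WT3, HET2 and HET3 were female and carry a polyA RNA label, so sex and label cannot be told apart. In the text below, the 6 WT and HET samples together are called the references.

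IκBα holds NF-κB dimers in the cytoplasm until the kinase complex IKK marks it for breakdown by the proteasome. Its gene, Nfkbia, is itself switched on by NF-κB, which closes a negative feedback loop. LT-HSCs expand in the fetal liver, whereas most of them are quiescent in the adult bone marrow.

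Before the levels, 2 of the references have to be set apart. The counted reads ranged from 17895973 to 21720972 per sample, where 3 reads correspond to 0.138 to 0.168 CPM. The summed level of 16 LT-HSC marker genes was 418 CPM in WT3 and 294 CPM in HET3, against 3499 and 3881 CPM in WT1 and WT2, 1246 and 931 CPM in HET1 and HET2, and 3563 and 2025 CPM in KO1 and KO2. Ly6a, the gene of the sorted antigen SCA1, was at 4.42 CPM in WT3 and at 0 reads in HET3, although both carry the LT-HSC label. Albumin (Alb), made by hepatocytes, was at 336 CPM in WT3 and 117 CPM in HET3. It was at 45.0 CPM in KO2, 0.391 CPM in KO1, and below the level of KO2 in WT1, WT2, HET1 and HET2. In WT3 the summed level of 24 hepatocyte marker genes was highest too, at 2042 CPM. HET3, at 1262 CPM, was below WT2 (1621 CPM) and KO1 (1388 CPM). The sum was 1211 CPM in KO2, 1094 CPM in WT1, 917 CPM in HET1 and 765 CPM in HET2. In bulk samples, fewer cells of a type and less RNA per cell cannot be told apart. With WT3 and HET3 both left out, a choice made after the data were seen, 30 genes met the rule, 15 of the 17 among them. Leaving out references cannot narrow a gap, and Rps6kl1 and Tspan12 dropped out because their mean over the other samples was under 5 CPM, not because of their KO levels.

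The DNA just before the start site is shown for 3 members to show the letters discussed next: Nfkbia because it is the targeted gene, Isca1 because it held 2 neighbouring nuclear receptor half-sites, and Timmdc1 because it held the most ETS matches. The sequences are from RefSeq on GRCm38.p6, run 5′ to 3′ on the strand of the gene (minus in all 3), and end at the base before the start. Capitals mark only the κB-like letters in Nfkbia, the half-sites in Isca1 and the ETS letters in Timmdc1. Matches of the other motifs, such as GC and CCAAT boxes, are left in lower case. They lie at chr12:55492648-55492847, chr13:59769790-59769939 and chr16:38522664-38522813.
Nfkbia: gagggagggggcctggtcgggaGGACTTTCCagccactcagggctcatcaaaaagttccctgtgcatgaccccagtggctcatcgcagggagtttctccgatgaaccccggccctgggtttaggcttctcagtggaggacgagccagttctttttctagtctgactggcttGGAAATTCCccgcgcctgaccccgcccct
Isca1: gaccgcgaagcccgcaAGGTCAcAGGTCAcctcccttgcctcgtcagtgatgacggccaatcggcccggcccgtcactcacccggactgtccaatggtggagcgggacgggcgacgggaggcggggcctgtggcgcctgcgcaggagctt
Timmdc1: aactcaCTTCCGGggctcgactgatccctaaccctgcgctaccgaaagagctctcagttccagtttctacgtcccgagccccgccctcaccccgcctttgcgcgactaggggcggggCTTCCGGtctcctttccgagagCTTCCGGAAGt

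For 14 of the 17 members RefSeq gave such a window (15 windows, each of 250 bases before and 50 after the start), and motifs were searched on both strands. The κB-like letters GGNNTTTCC were found in Nfkbia, at bases -178 and -29, and in no other member with a window, which is 6.67% of member windows against 5.82% of all windows. The nuclear receptor half-site AGGTCA, the letters that receptors such as the retinoic acid receptors bind in pairs, stood at -134 and -127 in Isca1, with 1 base between the copies, and also in the window of Nampt. That is 13.3% of member windows against 16.3% of all. The ETS letters CCGGAAG were found in Timmdc1, Isca1 and Edem3, or 20% against 8.86%, and the last 2 of the 4 matches in Timmdc1 overlap. The E-box CACGTG, which MYC and MAX bind, was in no member window and in 7.15% of all windows. The commoner GC box GGGCGG was in 73.3% of member windows against 35.7% of all, and the CCAAT box, read by its 5 letters, in 53.3% against 37.4%. In the bases before the start alone these shares were 53.3% against 32.7% and 40% against 33.8%. The letters TTTNGCGC (E2F-like), GCGCATGC (NRF1-like), AAGATGG (YY1-like) and TGACGTCA (CRE) were in no member window and in 1.376%, 2.71%, 6.34% and 1.79% of all windows. These are matches of letters, not measured binding. All windows means all 32851 RefSeq windows, not only those of eligible genes. A difference from them is therefore not read as a trait of the members.

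Nfkbia (ENSMUSG00000021025, chromosome 12 of GRCm38, 55489410 to 55492647, minus strand) is the targeted gene and the member with the widest gap. A single read was counted in KO1 (1 read) and none in KO2 (0 reads), where 3 reads are taken as the floor. The references gave 49.4, 78.5 and 20.7 CPM in WT1, WT2 and WT3 and 22.6, 26.8 and 12.3 CPM in HET1, HET2 and HET3. WT1 and WT2 were above all 3 HET samples and WT3 lay within the HET range, while within each of the 3 pairs of the same number HET was below WT. The lowest reference, HET3 with 243 reads, was 221 times the level of KO1, with a 95% exact counting interval of 39.2 to 8748. The mean of the HET samples was 0.416 of the WT mean.

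The other 16 members were lower by far less. The gap, the lowest reference level divided by the highest KO level, ran from 1.11 to 2.05, the widest being those of Rps6kl1 (2.05) and Tspan12 (1.48). Their KO mean was 17.4% to 83.6% below the reference mean, with a median of 30.2%. KO1 and KO2 lay within 10% of each other in 12 of the 16. The highest KO level rested on 20 reads in Rps6kl1, 55 in Tspan12 and 99 in Pkd2l2, and on 184 to 30577 reads in the other members of the 16. Just inside the margin were Snapc1 (gap 1.11), Isca1 (1.11) and Edem3 (1.12), and just outside it were Acot8 (1.0998), Ccnc (1.096) and Tmem33 (1.094).

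**Figure D1:**
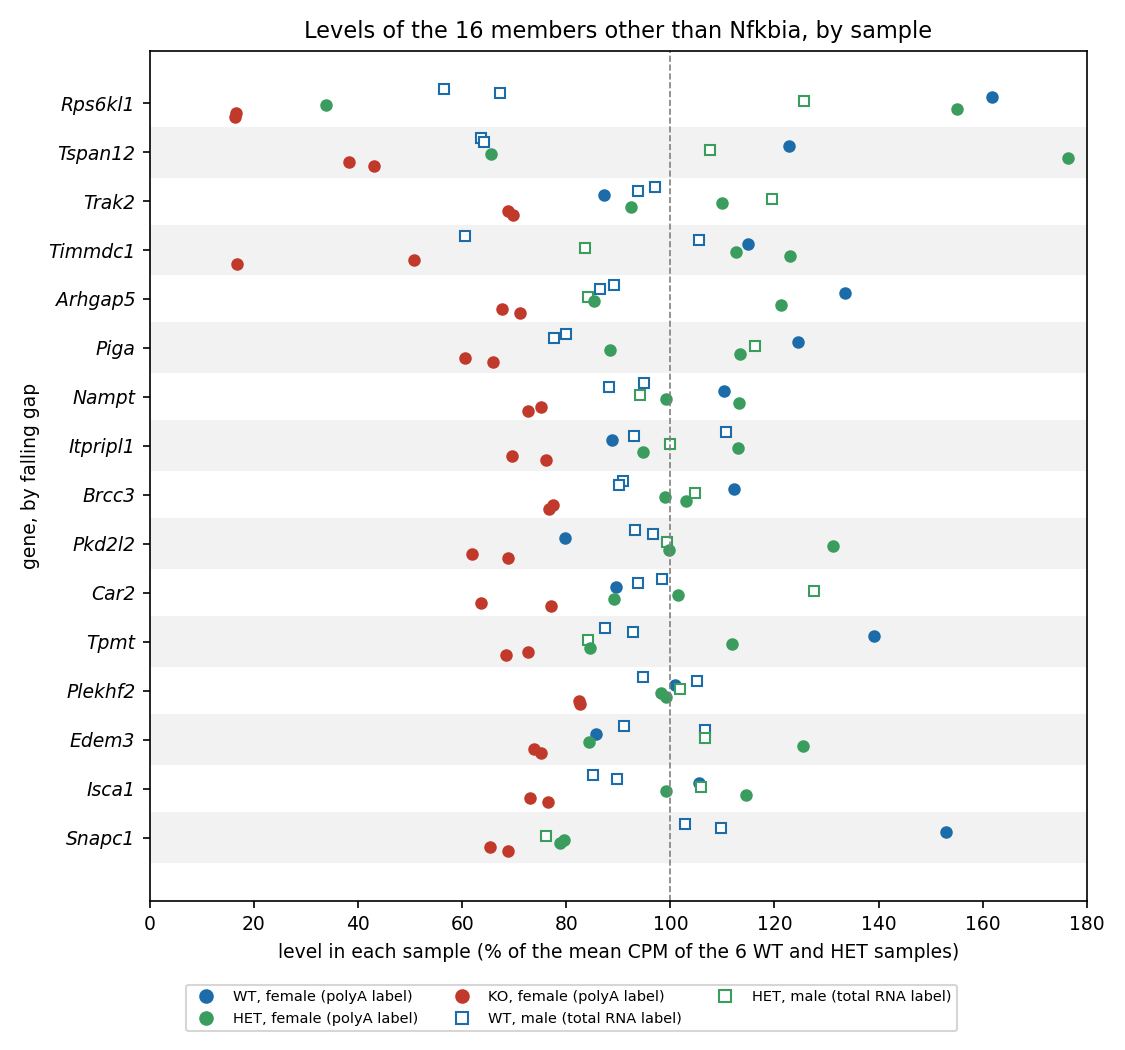
Level of the 16 members other than Nfkbia in each of the 8 samples, as a percentage of the mean CPM of the 6 references; squares are male and circles female samples, blue WT, green HET and red KO. Both KO points lie left of all others in every row by the rule, from 17.4% under the reference mean in Plekhf2 to 83.6% under it in Rps6kl1.

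3 members work in or on mitochondria, a grouping made after the members were known. Timmdc1, an assembly factor of respiratory complex I, reached 28.3 CPM in KO1 but 9.28 CPM in KO2, against 33.7, 58.7 and 63.9 CPM in WT1, WT2 and WT3 and 46.6, 62.7 and 68.4 CPM in HET1, HET2 and HET3. It was the member on which the KO samples differed most, KO1 being 3.05 times KO2, and its lowest reference, WT1, stood apart from the other 5. The KO mean was 66.3% below the reference mean, a log2 ratio of -1.57, and with KO2 left out the log2 ratio was -0.98. Trak2, an adaptor that links mitochondria to kinesin motors, had the more even profile, with 27.9 and 28.3 CPM in the KO samples, 39.4, 38.0 and 35.4 CPM in WT and 48.5, 44.6 and 37.5 CPM in HET. Isca1, which helps to build the iron-sulfur clusters of mitochondrial enzymes, was at 67.1 and 70.2 CPM in KO and between 78.1 CPM (WT1) and 105 CPM (HET3) in the references. No gene of the list of nuclear-encoded oxidative phosphorylation subunits (79 eligible) was a member, nor any of 76 mitochondrial ribosomal protein genes. In the edgeR fit with sex in the model, 78 of the 83 tested oxidative phosphorylation genes had a log2 fold change under 0 in KO. The list median was -0.59 against 0.13 over all genes. As both KO samples are female, this fit sets KO against the female WT3, HET2 and HET3. The male references add only to the estimate of the spread. The same holds for the other KO fold changes of this fit. The difference of this list was not one from all references. Its summed CPM was 26275 and 29993 in KO1 and KO2, above the 25911 and 24285 of WT1 and WT2. It was below the 32368 to 36113 of the other references. The median log2 ratio of KO to reference CPM was -0.17, against 0.12 over the eligible genes. In this fit edgeR called 0 of the 20610 genes (5196 at an unadjusted p under 0.05) while DESeq2 with the apeglm estimate called 1463.

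4 members are enzymes of small-molecule metabolism or of lipid anchors. Nampt, the rate-limiting enzyme of NAD salvage, was at 69.5 and 67.2 CPM in KO1 and KO2, at 87.9, 81.6 and 102 CPM in WT and at 87.2, 91.7 and 105 CPM in HET. The 6 references thus stayed within a narrow band, and the KO mean was 26.1% below their mean. Piga, the catalytic subunit of the first step of GPI anchor synthesis, was at 37.9 and 41.4 CPM in KO, with WT1 and WT2 next at 50.1 and 48.7 CPM and the other references between 55.5 and 78.1 CPM. GPI anchors hold SCA1 and CD48, both used in the sort, on the cell surface. Tpmt, which methylates thiopurines, was at 10.3 and 9.68 CPM in KO and at 11.9 to 19.7 CPM in the references, and it shares its locus with Kdm1b on the other strand, so its reads are uncertain because the strand setting of the count is not given in the sources used here.

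Car2, the carbonic anhydrase of red cells and several other cell types, was the most abundant member by far. It was at 1265 and 1533 CPM in KO1 and KO2, at 1960, 1865 and 1783 CPM in WT and at 2540, 2018 and 1776 CPM in HET. The KO samples were thus 29.7% below the reference mean, and HET1 stood above the other references. Car2 was also the one member on the list of erythroid markers. In the edgeR fit with sex, KO is set against WT3, HET2 and HET3. There, 3 of the 16 tested genes of the list had a log2 fold change over 0 and 13 under 0. Their median was -1.27, against 0.13 over all genes. The summed level of the other 15 markers was 937 and 3828 CPM in KO1 and KO2, 1676 to 3702 CPM in WT and 4058 to 15085 CPM in HET, where HET1 was again highest. KO2 lay above all 3 WT samples in that sum but below them in Car2. The markers that define erythroid cells were far from 0 in all samples, Hba-a1 being at 113 CPM in KO1, the lowest, and at 3561 CPM in HET1. Their part in the lower Car2 level was not tested.

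5 members act in signalling or at the cell membrane. Rps6kl1, a kinase-like protein of the ribosomal S6 kinase family, was at 1.118 and 1.103 CPM in KO1 and KO2, 3.82, 4.55 and 11.0 CPM in WT and 8.51, 2.29 and 10.5 CPM in HET. Its references spread widely and HET2, with 49 reads, came closest to the KO samples, which had 20 and 22 reads. Tspan12, a tetraspanin of the Norrin and Frizzled-4 receptor complex, was at 2.46 and 2.76 CPM in KO, at 4.08, 4.12 and 7.87 CPM in WT and at 6.91, 4.20 and 11.3 CPM in HET. In these low genes WT3 and HET3, the libraries low in LT-HSC markers, were the 2 highest. Arhgap5, a GTPase-activating protein, was at 23.6 and 24.8 CPM in KO against 29.3 CPM (HET1) to 46.6 CPM (WT3). Pkd2l2, a channel protein of the polycystin family, was at 4.47 and 4.96 CPM against 5.75 to 9.48 CPM, and overlaps Fam13b on the other strand. Itpripl1 was at 24.3 and 26.5 CPM against 30.9 to 39.4 CPM, its lowest reference being WT3.

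The remaining 4 members serve protein turnover, endosomes and transcription. Plekhf2, an endosomal protein that binds phosphoinositides, had the tightest levels: 78.8 and 79.1 CPM in KO1 and KO2, 90.6, 100 and 96.6 CPM in WT and 97.3, 94.0 and 94.9 CPM in HET. The reference SD was 3.34 CPM (n = 6) around a mean of 95.7 CPM, and the KO mean was 17.4% lower, the smallest difference among the members. Brcc3, the deubiquitinase of the BRISC and BRCA1-A complexes, was at 100 and 99.5 CPM in KO, against 117 CPM (WT2) to 145 CPM (WT3). Edem3, which trims mannose from misfolded glycoproteins in the endoplasmic reticulum, was at 17.9 and 18.2 CPM against 20.5 to 30.5 CPM. Snapc1, a subunit of the complex that starts transcription of small nuclear RNA genes, was at 16.3 and 17.2 CPM in KO, 19.0, 19.9 and 19.7 CPM in HET and 25.7, 27.4 and 38.2 CPM in WT. It was thus the one member in which all 3 HET samples lay between the KO and the WT samples without overlap.

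Within the references, which the rule uses for their lowest value but not to set WT against HET, the genotypes could be tested. In HET against WT, edgeR with sex in the model called 0 of 19542 genes at an adjusted p under 0.05 (0%), and 0 of the 17 members. At an unadjusted p under 0.05 it took 754 genes (3.86%) and 1 member, Snapc1, with a log2 fold change of -0.61 (SE 0.226, edgeR adjusted p = 0.919). DESeq2 called 55 genes in the same comparison. Nfkbia differed by -0.70 (SE 0.435, edgeR adjusted p = 0.919). With WT3 and HET3 left out, Nfkbia differed by -1.27, which sets HET1 alone against 2 WT samples, since HET2 is then the one female sample. No p is given for it, as the spread would be that of the 2 WT samples. The mean of the HET samples was below that of WT in 5 of the 17 members (29.4%), against 61.9% of the eligible genes. The 5 were Nfkbia, Snapc1, Arhgap5, Tpmt and Plekhf2. The rule asked the lowest reference to clear both KO levels, so the share of 29.4% is not read as a trait of the members.

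Between the 3 male (total RNA label) and the 3 female (polyA label) references, edgeR with genotype in the model called 2 of 19542 genes (0.0102%) and 0 members. At an unadjusted p under 0.05 it took 4629 genes (23.7%) and 4 members, all lower in the male samples: Timmdc1 by a log2 fold change of -0.72 (SE 0.234, edgeR adjusted p = 0.177), Arhgap5 by -0.69, Nampt by -0.46 and Tpmt by -0.66. 4 of 17 members is close to the share of all genes. The male mean was below the female mean in 11 of the 17 members, against 37.5% of the eligible genes. All 3 males were below all 3 females in 2 members (11.8%, against 18.4%). The rule required every reference to clear the KO levels, so these shares are not read as a trait of the members. WT3 and HET3, low in LT-HSC markers, are 2 of the 3 female samples in this contrast, and their part in it was not tested. Against the female references alone, which share the sex and the label of the KO samples but include these 2, 1241 genes met the rule, the 17 included. Timmdc1 then had a gap of 2.22 in place of 1.19 and Nampt 1.32 in place of 1.18.

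**Figure D2:**
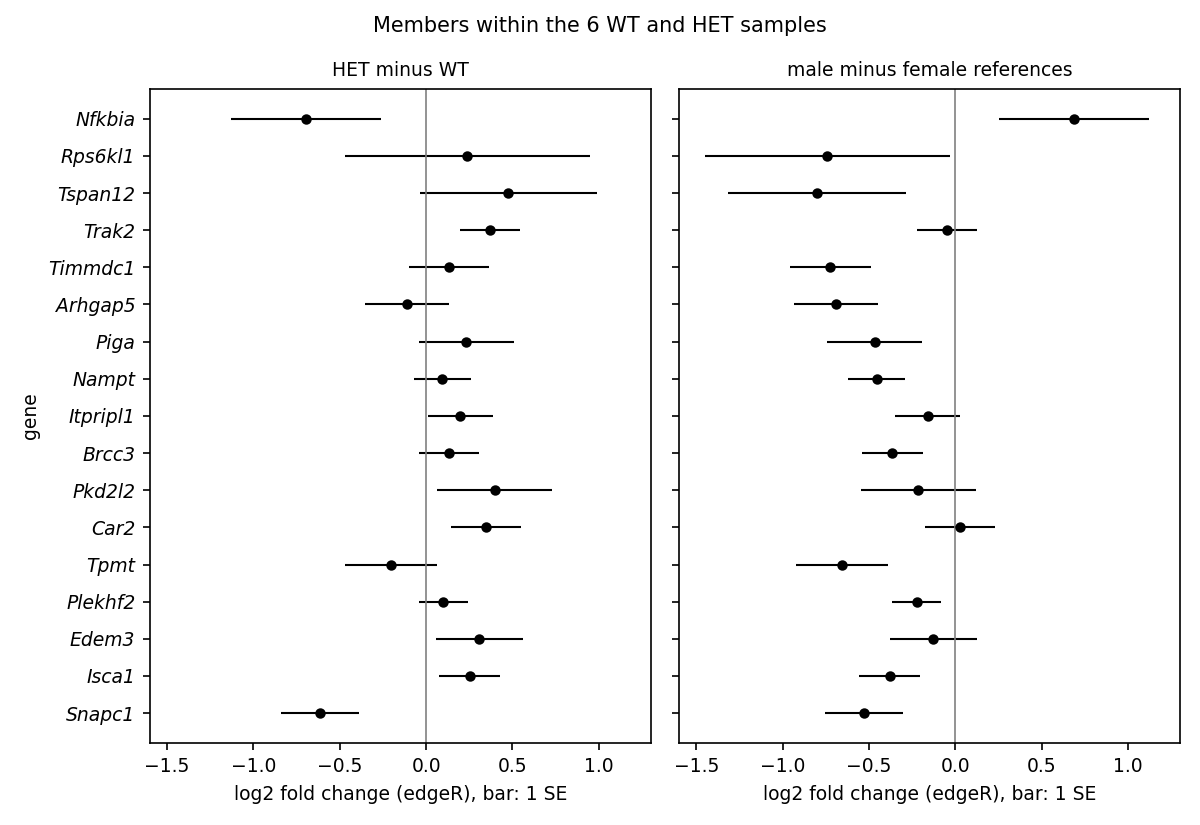
Log2 fold change (edgeR) of the 17 members within the 6 references, HET minus WT on the left and male minus female on the right, with bars of 1 standard error. On the left Nfkbia (-0.70) and Snapc1 (-0.61) lie farthest to the left; on the right most members lie left of 0, Timmdc1 at -0.72.

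Membership turned on which samples were compared. Taking the WT samples as references gave 59 genes, the HET samples 759, and leaving out WT1 or WT2 gave 42 and 43. Leaving out KO1 gave 135 and leaving out KO2 gave 369. Each of these larger lists held all 17, as leaving out samples cannot narrow a gap. WT3 or HET3 was the highest sample in 11 of the 17 members (64.7%, against 24.9% of the eligible genes). The 2 libraries that were low in LT-HSC markers were thus often farthest from the KO samples. By the rule a KO sample cannot be the highest in a member, while it can be in the eligible genes. The median coefficient of variation among the references was 17.04% for the members and 25.2% for the eligible genes. The rule also asks the lowest reference to clear both KO levels, so neither difference is read as a trait of the members.

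A count of how many genes any other pair of samples would give serves as the scale for the number 17. There are 28 ways to take 2 of 8 samples, and 4287 eligible genes met the rule with one of these pairs in the place of the KO samples. An average pair therefore holds 153 genes, and the median pair 20. Most came from WT3 and HET3, which were the 2 lowest samples by the margin in 2382 genes. Without that pair the average is 70.6. The KO pair, with 17, held fewer genes than the average and the median pair.

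The scaling of the libraries decided 8 members. With TMM factors in place of column sums 25 genes met the rule and 9 of the 17 were among them, and with DESeq2 size factors 29 genes did, again with 9 of the 17. Nfkbia, Rps6kl1, Tspan12, Trak2, Timmdc1, Pkd2l2, Tpmt, Edem3 and Snapc1 met it under both. Arhgap5, Piga, Nampt, Itpripl1, Brcc3, Car2, Plekhf2 and Isca1 had a gap between 1.03 and 1.09 with either, so that their KO samples were still the lowest but by less than the margin. The median log2 ratio of KO to reference means over the eligible genes was 0.12 with column sums, -0.02 with TMM factors and -0.04 with size factors, and that of the members was -0.53, -0.68 and -0.70, so the members kept about the same distance from the median gene. On the log2 values that the authors deposited after removing the effect of sex, 1223 genes met the rule, and all members but Car2 were among them.

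**Figure D3:**
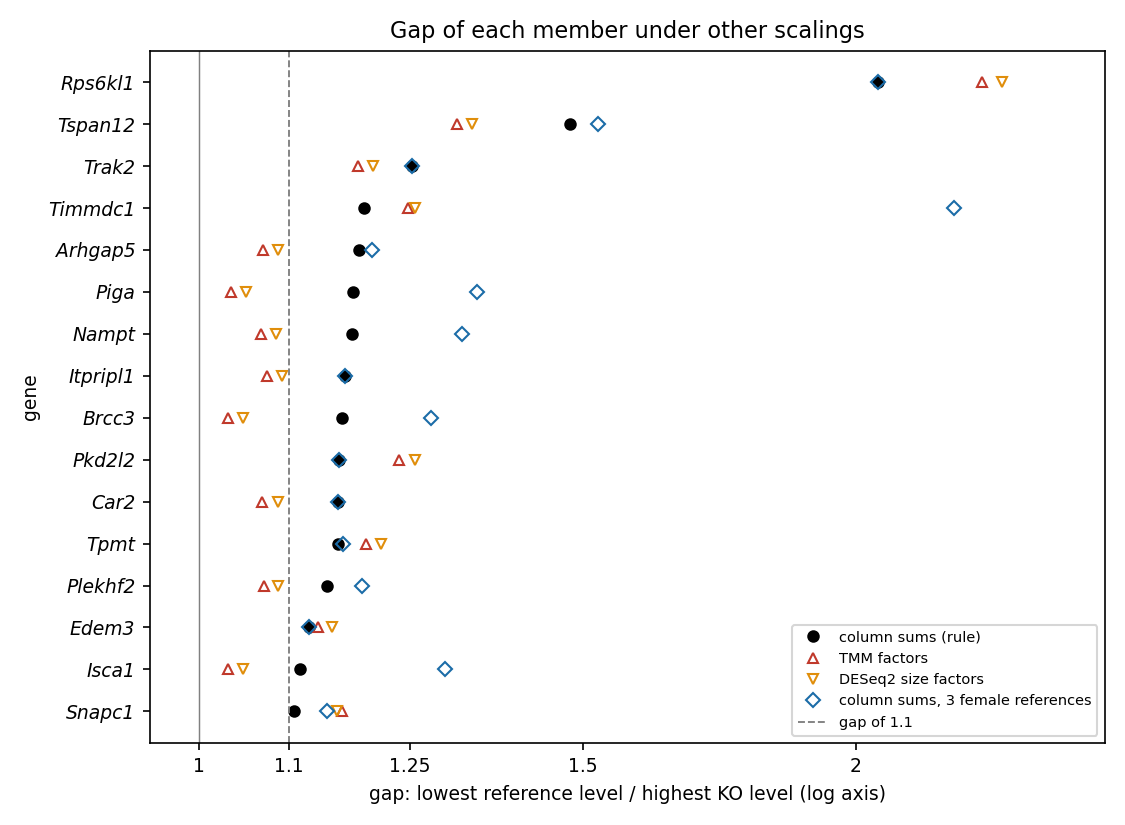
Gap of the 16 members other than Nfkbia (lowest reference level over highest KO level, log axis) with column sums, TMM factors and DESeq2 size factors, and with column sums against the 3 female references alone. The 8 genes whose triangles lie left of the dashed line at 1.1, with gaps of 1.03 to 1.09, leave the set under either scaling, while every gap stays over 1.

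5 of the 17 members (29.4%) were on chromosome 12, which carries Nfkbia and 3.51% of the eligible genes. Counted without Nfkbia there were 4: Arhgap5, Nampt, Snapc1 and Rps6kl1. Of the 345 eligible genes on chromosome 12, 1.45% were members, the targeted Nfkbia counted among them, against 0.127% of the 9472 elsewhere. The 4 were not neighbours: from the start of Nfkbia, Arhgap5 lay at -2.99 Mb and Nampt at -22.7 Mb, and Snapc1 lay at 18.5 Mb and Rps6kl1 at 29.6 Mb on the other side. Within 10 Mb of Nfkbia, 1 of 40 eligible genes was a member, Arhgap5. The median log2 ratio of KO to reference was 0.04 on chromosome 12 and 0.12 over the eligible genes. Chromosome X held 2 members, Piga and Brcc3 (11.8%, against 3.26% of the eligible genes), and 12 of the 17 members lay outside chromosome 12. Whether position bears on these levels was not tested.

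**Figure D4:**
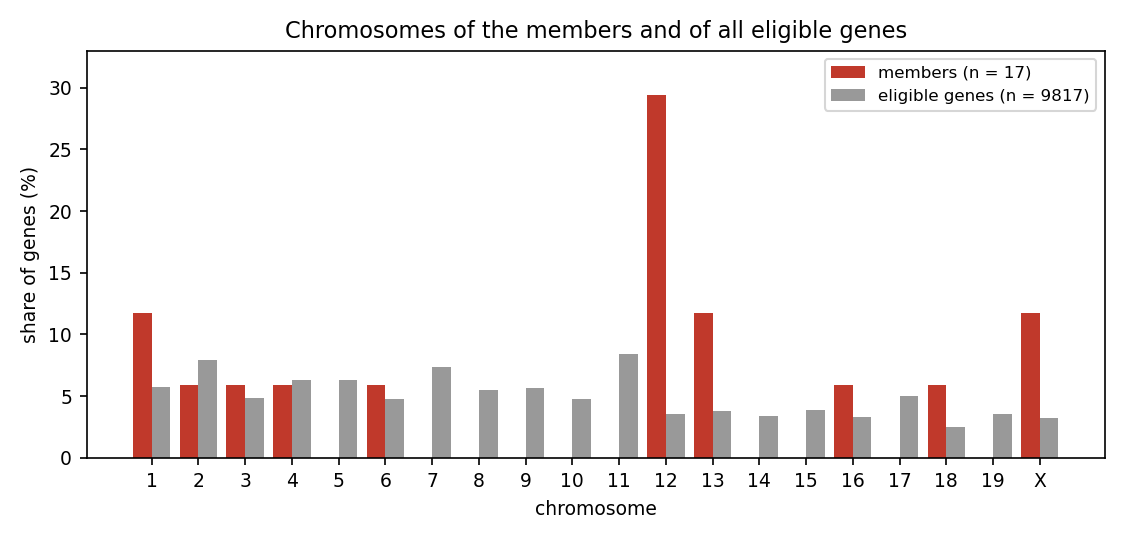
Share of the 17 members (red) and of the 9817 eligible genes (grey) on each chromosome, in percent, with bars from 0. Chromosome 12 holds 29.4% of the members, Nfkbia among them, and 3.51% of the eligible genes.

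Of 40 gene lists, 29 of pathways and 11 of cell type markers, 2 held a member, and each held 1. Besides the erythroid list these were the NF-κB pathway genes, where Nfkbia was the single member of 58 eligible genes. Of the 68 tested NF-κB genes 49 had a log2 fold change over 0 in KO and 19 under 0, with a median of 0.65 against 0.13 over all genes, and DESeq2 with apeglm called 20 higher and 2 lower, beside 1340 higher among the 1463 called over all genes, while edgeR called 0. The summed CPM of the list was 3408 and 2673 in KO1 and KO2 and 3280 and 3471 in WT1 and WT2, and it was lower in the other references, from 1897 in WT3 and 1916 in HET3 to 2313 in HET1. The list's median of 0.65 comes from the fit with sex, which sets KO against WT3, HET2 and HET3. WT3 and HET3 are thus among its references, and how far they set it was not tested. The other IκB genes did not follow Nfkbia: the gap was 0.762 for Nfkbib and 0.045 for Nfkbie, both under 1. No member came from the cytosolic ribosomal proteins (72 eligible), DNA replication (61), mitosis and spindle (69) or ribosome biogenesis (70). The other 15 members were on none of the 40 lists.

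In KO against WT and HET, DESeq2 with apeglm called 1463 of 20610 genes (7.1%). A call needed a log2 fold change beyond 1 in either direction and an adjusted p under 0.05. With sex in this model too, its fold changes set KO against WT3, HET2 and HET3. Among the called genes were 4 members: Nfkbia, Rps6kl1, Tspan12 and Timmdc1. As the rule used these samples, nothing is read from the number of members called.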

How the data were processed

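The authors deposited raw counts per gene of the 8 samples. By the methods and the submitters' notes, reads were trimmed with Trim Galore 0.6.6, aligned to GRCm38 with STAR 2.7.8 and counted when uniquely mapped, which lowers genes with near-identical copies. They also deposited log2 values from the variance-stabilizing transformation of DESeq2, with the effect of sex removed by limma. From the counts, CPM were computed on column sums. Gene types and positions are from GENCODE M21, which 55227 of 55487 genes matched.

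Genes with 10 or more reads over the samples compared were tested with edgeR 4.0.16 (TMM, quasi-likelihood test, legacy form, R 4.3.3) and Benjamini-Hochberg adjustment. SE is the fold change divided by the square root of the test statistic. DESeq2 1.42.0 with apeglm 1.24.0 was an alternative. Groups, sex and replicate numbers are from the labels. Separate embryos are stated by the methods. The tests were tried on simulated data.

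WT and HET samples of the same number deviated together from their group means (r = 0.61, 0.49 and 0.75 across genes). With a KO sample of the same number, r was 0.54 for WT1 and 0.43 for HET1, but -0.57 for WT2 and -0.32 for HET2. As KO1 and KO2 are the only KO samples, the deviation of KO2 is minus that of KO1. The signs of r with a KO sample are thus not read as bearing on pairing. Samples of different numbers were not correlated, so whether the numbers pair the samples was not tested. As in the methods, the values given are from the fit with sex and no block, and a fit that pairs samples by number is an alternative. In the fit with sex, the KO fold changes rest on WT3, HET2 and HET3, as both KO samples are female.

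The members and gene lists were chosen with earlier results of these data known. Genes are named by rule: Nfkbia, the 15 members with the largest gap, the most abundant ones, members on a list, those nearest the margin, and those with a small p. As these cover all 17, every member is given. The sequence windows are RefSeq's. Leaving out WT3 with HET3 was chosen after seeing the data.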

Additional observations from a re-analysis of the deposited data

How the results depend on the processing

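All of the members rest on 2 KO samples. The number of genes meeting the rule, 17, was 95 with a gap of 1, 4 and 2 with the stricter gaps tried, the larger of which was 1.5, and 35 with a mean of 1 CPM or more. It was 29 with DESeq2 size factors, 1223 on the authors' sex-corrected log2 values, 1241 with the female, 59 with the WT and 759 with the HET samples as references, 30 without WT3 and HET3, and 43 without them and with TMM factors. With each sample left out in turn it ran from 20 to 369, the highest without KO2 (135 without KO1, 42 without WT1, 43 without WT2). Those without WT3 and without HET1 lacked Rps6kl1 and those without HET3 lacked Rps6kl1 and Tspan12. These left the list through the minimum of 5 CPM. Of 176 recalculated ratios of KO to references, for the 16 members other than Nfkbia under 11 settings, 13 moved by more than the spread among samples. The selection fixes their direction where samples are left out.

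The genes called in KO against WT and HET together, 0, were 1825 with the Wald test of DESeq2, 1463 with apeglm, 1106 with no filter beyond 1 read, 1 with the edgeR version 4 form, 706 with WT alone and 0 to 703 with a sample left out (703 without HET2). In HET against WT, 0 became 55, 154 and 3304 with DESeq2, with no filter beyond 1 read and without WT3 and HET3 (HET1 as the lone sample of its arm, assumed to vary like the WT pair), and 0 to 76 with a sample left out. Between male and female references, 2 became 3222 with DESeq2, 3280 with no filter beyond 1 read, 0 with 10 reads in every sample, 5 with the version 4 form, 4 without genotype and 0 to 4113 with a sample left out. With a replicate block the calls were 0 in all 3 comparisons, and no call of a member changed. In this paired fit Nfkbia differed between HET and WT by -0.83 (edgeR adjusted p = 0.737) and Snapc1 by -0.59 on the log2 scale, and Timmdc1 between male and female references by -0.03 in place of -0.72. Timmdc1 passed the threshold between male and female references with DESeq2 (adjusted p = 0.0436) and with no filter beyond 1 read (edgeR adjusted p = 0.0389), and Arhgap5 without HET2 (edgeR adjusted p = 0.0218). The cause of these differences was not tested.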
